A study of Mus musculus with 79 samples.

Results

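Complement transcripts were followed through a mouse study of immediate and delayed nerve repair. The 9 genes were chosen by their symbols in the 3 count tables, for macrophages, Schwann cells (SC) and the distal nerve stump, and all 9 were present among the 23361 genes listed there. They were C1qa, C1qb and C1qc, which encode the chains of the C1q recognition molecule, C4b and C2, which supply the classical pathway convertase, C3, the central component, Cfb, the protease of the alternative pathway convertase, and C3ar1 and C5ar1, the receptors for the C3a and C5a fragments. A list of 42 other complement genes was read beside them.

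Complement is a cascade of plasma and tissue proteins. C1q binds immune complexes, dying cells and debris and starts the classical pathway, C4 and C2 then form an enzyme that cleaves C3, and factor B extends the response through the alternative pathway. Cleaved C3 coats targets for phagocytosis, and the released C3a and C5a fragments act on G protein-coupled receptors of myeloid cells. In injured peripheral nerve, complement is known for marking degenerating myelin for uptake by macrophages, and tissue macrophages are a main source of C1q.

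The mice expressed GFP under the human S100β promoter, which labels SC, and their ages are not stated in the labels. In every animal a freshly cut common peroneal nerve was joined to the tibial stump through a silicone conduit, either immediately or after the tibial nerve had been left denervated for 8 weeks. For its immediate group the study describes an earlier opening and closing of the surgery site, 8 weeks before the nerve was operated on. Macrophages and SC were sorted from 1 regenerative bridge per animal, without pooling, at day 5 or day 14 after repair, with 1000 cells of each type per animal. Macrophages were sorted as F4/80+ CD14+ CD16/32+ CD11b+ cells and SC as GFP+ cells lacking those markers. The distal stump was taken as whole tissue at day 5 alone. Macrophage libraries numbered 8 after immediate and 9 after delayed repair at day 5, and 8 and 7 at day 14. SC libraries numbered 7, 9, 8 and 7 in the same order, and stump libraries 7 and 9. All groups held male and female mice, and the 79 libraries came from 32 animals.

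Library totals were 14928745 to 28499407 estimated counts in macrophages, 11614940 to 30796823 in SC and 3898778 to 9212709 in the stump, and levels are given as CPM, the count scaled to a common library total. A count of 3 equals 0.105 to 0.201 CPM in macrophages, 0.0974 to 0.258 in SC and 0.326 to 0.769 in the stump, which is the lowest level read as present. The sort was checked on defining markers. In the macrophage libraries Cd14 lay between 4465 and 10664 CPM and Sox10, a Schwann lineage factor, between 0 and 1.75 CPM. The SC libraries went against their label. The summed level of 11 dendritic cell markers was 25944 to 53702 CPM in them, in every library above the summed level of 9 Schwann cell markers, which was 142 to 3438 CPM. They held 2413 to 9817 CPM of Ccr7, a receptor of migrating dendritic cells, while S100b reached at most 49.5 CPM and Sox10 at most 199 CPM. Their summed level over 12 macrophage markers ranged from 231 to 10651 CPM, against 17139 to 35300 CPM in macrophages. In the SC libraries 9 fibroblast markers summed to 14.9 to 8932 CPM at day 5 and 901 to 19917 CPM at day 14. They are called SC libraries here because that is how they were labelled, and every SC value below belongs to this mixture.

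All 9 genes lie on the minus strand. C1qa, C1qb and C1qc sit side by side on chromosome 4 between 136880129 and 136898803 (GRCm38, the build also called mm10), and C4b (17:34728380-34743882), Cfb (17:34856374-34862518) and C2 (17:34862604-34898265) lie in the major histocompatibility region. C3 is at 17:57203970-57228136, C3ar1 at 6:122847138-122856161 and C5ar1 at 7:16246743-16259540. Of the 85-base stretches in C4b transcripts, 19.2% also occur in C4a, its near-identical copy, so reads there could be split between the copies and C4b counts are uncertain to that extent. C4a itself stood at 0 to 4.44 CPM in the sorted cells and 1.50 to 25.9 CPM in the stump. C2 and Cfb share 36.4% and 68.7% of their stretches with Gm20547, a gene model that reads through both, and with no other gene.

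Promoter sequence from 250 bases before to 50 bases after the transcription start (RefSeq, GRCm38.p6) was found for 5 of the 9 genes, namely C1qb, C1qc, C3, C3ar1 and C5ar1. The windows of C1qb and C1qc are shown because these neighbours moved together in every table, and that of C5ar1 because its transcript had the clearest change with time in macrophages. They are C1qb at chr4:136886151-136886450, C1qc at chr4:136892865-136893164 and C5ar1 at chr7:16259289-16259588, each written 5′ to 3′ on the minus strand. Capitals mark matches on either strand to GAGGAA, the core bound by the myeloid factor PU.1, and TGCTGA, one arm of the element bound by Maf factors.
C1qb: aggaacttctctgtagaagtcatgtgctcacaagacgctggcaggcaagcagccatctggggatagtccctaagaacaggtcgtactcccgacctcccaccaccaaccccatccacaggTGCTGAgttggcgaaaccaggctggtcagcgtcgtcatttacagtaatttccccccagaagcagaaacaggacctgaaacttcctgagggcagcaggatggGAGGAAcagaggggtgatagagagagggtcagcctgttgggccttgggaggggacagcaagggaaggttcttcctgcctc
C1qc: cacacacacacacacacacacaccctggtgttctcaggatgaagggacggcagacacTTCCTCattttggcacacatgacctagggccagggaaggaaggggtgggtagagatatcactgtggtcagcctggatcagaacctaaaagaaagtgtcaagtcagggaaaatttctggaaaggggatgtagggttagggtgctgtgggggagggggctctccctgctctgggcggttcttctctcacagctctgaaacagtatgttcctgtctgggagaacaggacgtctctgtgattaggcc
C5ar1: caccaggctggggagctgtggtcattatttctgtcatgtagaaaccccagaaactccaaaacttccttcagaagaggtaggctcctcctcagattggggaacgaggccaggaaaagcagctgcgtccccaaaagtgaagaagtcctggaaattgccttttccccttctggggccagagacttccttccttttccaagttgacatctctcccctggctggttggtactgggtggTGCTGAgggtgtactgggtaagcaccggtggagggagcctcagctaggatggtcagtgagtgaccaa

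GAGGAA was present in 28.3% of 32851 windows of this length and TGCTGA in 19.5%, so either match is common. The C1qb window held both, with GAGGAA beginning 30 bases before the start site and TGCTGA 131 bases before it. C1qc held GAGGAA on the opposite strand, 193 bases before the start, and no TGCTGA. In C5ar1 a TGCTGA match began 17 bases before the start. C3 and C3ar1 each held 1 TGCTGA and 1 TATAAA, letters that 13.6% of windows contain. The TATAAA of C3 began 14 bases after the annotated start and that of C3ar1 235 bases before it. Neither lay just upstream of that start, where a TATA box acts. Other possible start sites were not examined. The composite element for ETS and IRF factors, present in 2.72% of windows, was found in none of the 5. These are letter matches in a window and not measured binding.

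C1q was the most abundant of these transcripts in macrophages. Per kilobase of exon, C1qb had a median of 2125 CPM at day 5 and 2873 CPM at day 14. C1qa (805 and 1078 CPM per kilobase) and C1qc (796 and 1055) followed and did not differ beyond their spread. C5ar1 came next at 609 and 375 CPM per kilobase, within reach of C1qc at day 5, then C3ar1 at 207 and 229 and Cfb at 156 and 106, whose ranges overlapped with that of C3ar1. C3 (23.1 and 15.2 CPM per kilobase) and C4b (5.35 and 13.9) were far lower and overlapped at both days. C2 was at the edge of detection in macrophages, with a highest value of 4.35 CPM and counts of 0 in 12 of 32 libraries.

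The stump had another order. There C1qb (median 396 CPM per kilobase) and C1qa (388) were closest, C1qc (151), Cfb (124) and C3 (124) overlapped, and C3ar1 (57.8), C4b (52.0), C5ar1 (31.4) and C2 (25.5) followed, again with overlapping ranges between neighbours. C3, C4b and C2 took a larger place in the tissue than in the sorted macrophages. C2 was present in every stump library, at 54.7 to 184 CPM. C3 stood at 421 to 1552 CPM in the stump and 36.5 to 198 CPM in macrophages. Stump RNA was rRNA-depleted and sorted-cell RNA was amplified from cDNA, so levels in the 2 kinds of library are set side by side and were not tested against each other. The C1qb to C1qa ratio per kilobase was 2.07 to 3.40 in macrophages and 0.730 to 1.42 in the stump. The library methods differed between them in the same way.

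The 3 C1q chains rose and fell together from library to library. Over 32 macrophage libraries, the Pearson correlation of log2(CPM + 1) was 0.92 for C1qa with C1qb, 0.95 for C1qb with C1qc and 0.96 for C1qa with C1qc. It was 0.96 to 0.99 over 31 SC libraries and 0.97 to 0.99 over 16 stump libraries. These values are descriptions, since all points of a table share their method and the SC libraries also share their varying macrophage content.

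The first question of the design was whether delay altered the transcripts at matched days. In macrophages at day 5, the C1q chains were lower after delayed repair, C1qb most of all, without passing the threshold. C1qb had a median of 2914 CPM after immediate repair, from 2170 to 3507 CPM. After delayed repair its median was 1921 CPM, from 1442 to 3045 CPM. The groups overlapped as a whole but not within either sex. Delayed males had 1442 to 1936 CPM against 2170 to 2742 CPM in immediate males, and delayed females had 1811 to 3045 CPM against 3087 to 3507 CPM in immediate females. The log2 fold change of C1qb, delayed over immediate, was -0.57 (SE 0.13, adjusted p = 0.28 by edgeR's quasi-likelihood test with Benjamini-Hochberg adjustment over 8409 genes). By p-value C1qb ranked 10 of those genes. The call depended on the fit: the adjusted p was 0.016 with DESeq2, 0.030 once sex entered the fit and 0.025 with the replicate number as a block, but 0.60 with library size scaling. With single libraries left out it ran from 0.056 to 0.59.

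C1qc and C1qa pointed the same way. C1qc had a median of 1985 CPM (1317 to 2504) after immediate and 1517 CPM (1066 to 2090) after delayed repair, a log2 fold change of -0.40 (SE 0.14, edgeR adjusted p = 0.69). C1qa had 944 CPM (610.0 to 1321) and 778 CPM (546 to 1116), a log2 fold change of -0.34 (SE 0.14, edgeR adjusted p = 0.85). Both overlapped between the repair groups. Within males C1qc had 1066 to 1517 CPM after delayed and 1317 to 1779 CPM after immediate repair, which overlapped. C1qa overlapped there too, at 546 to 778 against 610 to 853 CPM. Within females C1qa overlapped, at 741 to 1116 against 1035 to 1321 CPM. C1qc did not overlap in females, at 1473 to 2090 against 2192 to 2504 CPM. Of the 8 members tested, 0 were called (edgeR), where 0.0357% of all genes were, and the 3 C1q chains had an unadjusted p under 0.05, as did 5.17% of all genes. DESeq2 called 1, C1qb, and its own share of all genes is not given here. Across the 12 macrophage markers, 6 were higher and 6 lower with a median log2 fold change of 0.00, 0 were called and 1 had an unadjusted p under 0.05.

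The remaining members did not pass the test at day 5. C5ar1 had a median of 1551 CPM after immediate and 1572 CPM after delayed repair, and C3ar1 869 and 997 CPM. Cfb had 417 and 493 CPM, C3 133 and 112 CPM, and C4b 28.8 and 48.2 CPM. All 5 overlapped between the groups. At day 14 the C1q chains differed by less than their spread. C1qb had a median of 3192 CPM (2089 to 3925) after immediate and 2945 CPM (1792 to 4443) after delayed repair, and the log2 fold change of each chain was 0.04 (SE 0.16 to 0.17). At that day 0 of 8 members were called by edgeR and 0 by DESeq2, with 0% of all genes called, and 0 had an unadjusted p under 0.05 against 2.21% of all genes.

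**Figure D1:**
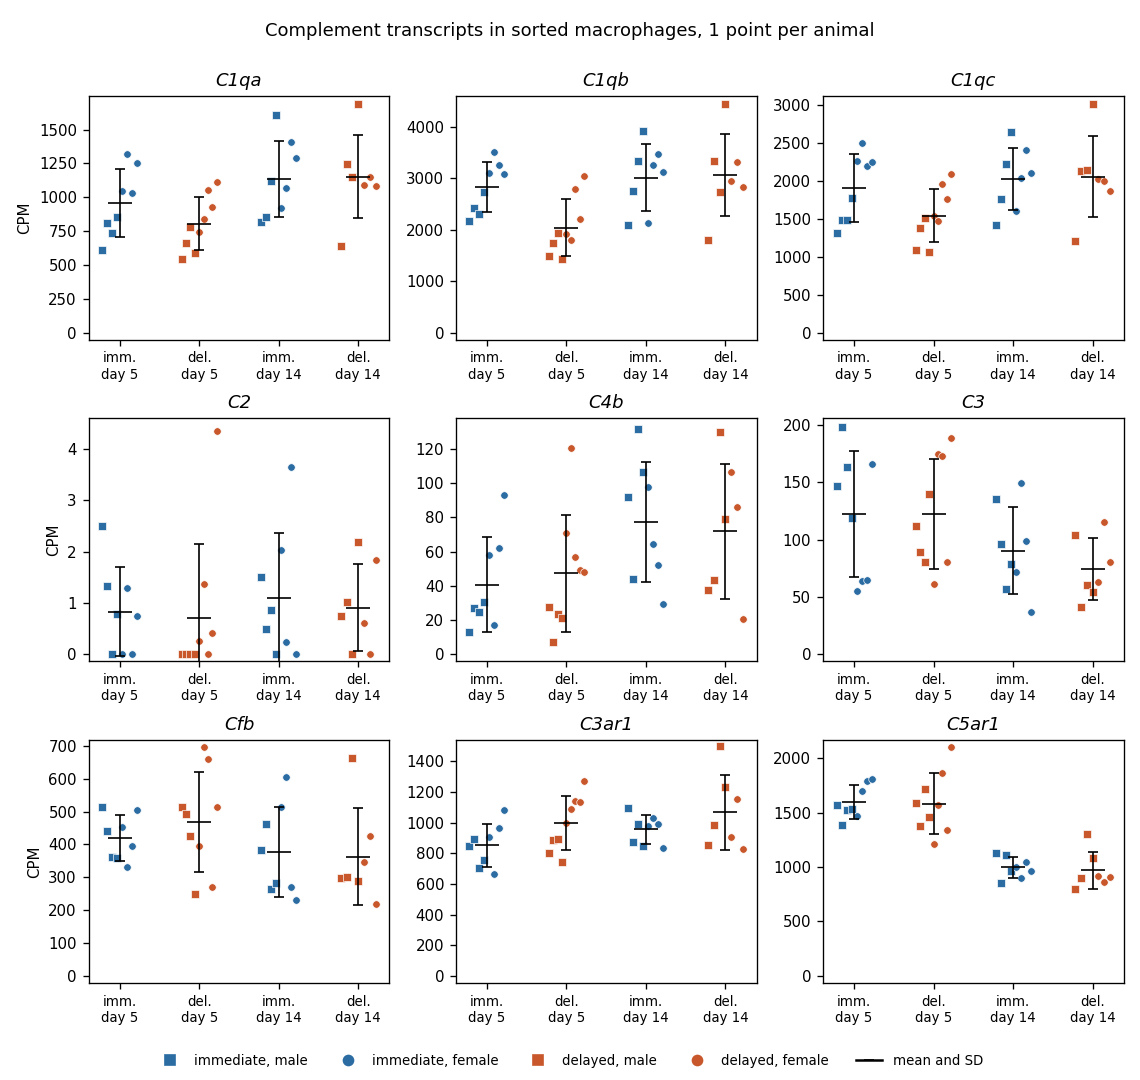
Levels of the 9 transcripts in sorted macrophages, in CPM, for immediate (imm.) and delayed (del.) repair at day 5 and day 14. Each point is 1 animal (squares male, circles female), and the bars give the mean and SD. C1qb is lowest in the delayed day 5 group (1442 to 3045 CPM), C5ar1 is lower at day 14 in both repair groups, and C2 stays at or under 4.35 CPM.

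Whether the effect of delay differed between days was tested by the interaction of repair and day. Its value for C1qb in macrophages was 0.61 (SE 0.21, edgeR adjusted p = 1.0) and for C1qc 0.45 (SE 0.21, edgeR adjusted p = 1.0), so the change of the C1q difference from day 5 to day 14 did not pass the test. In this fit 0 of 8 members and 0.0223% of all genes were called by edgeR, and 0 members by DESeq2. An unadjusted p under 0.05 was found for 2 members and 3.61% of all genes.

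The clearest change with time was the fall of C5ar1, the receptor that draws myeloid cells towards C5a. After immediate repair its level was 1388 to 1813 CPM at day 5 (median 1551) and 853 to 1126 CPM at day 14 (median 983), with no overlap. After delayed repair it was 1216 to 2105 CPM (median 1572) and 802 to 1305 CPM (median 909), with the ranges just overlapping. The log2 fold change of C5ar1, day 14 over day 5, was -0.84 (SE 0.09, adjusted p = 6.71e-06 by edgeR) after immediate and -0.77 (SE 0.13, adjusted p = 0.0018) after delayed repair. It was called in all 16 fits that left out 1 library in each repair group. The interaction for C5ar1 was 0.08 (SE 0.15, edgeR adjusted p = 1.0). Of the 12 macrophage markers, 4 were called lower and 1 higher after immediate repair and 1 was called lower after delayed repair, and their median on the log2 scale was -0.13 in both. The 1 neutrophil marker tested, S100a8, was called lower in both, at -1.68 and -1.77. The 2 endothelial markers tested were lower in both, 1 of them called, with medians of -0.65 and -1.01. Of the 6 dendritic cell markers tested, 5 were called higher in both, with medians of 2.12 and 1.89, and over the 32 libraries, which hold both days, the Pearson correlation of C5ar1 with their summed level was -0.79. Their part in the result was not tested. C3ar1, the other anaphylatoxin receptor, had medians of 869 and 981 CPM after immediate and 997 and 984 CPM after delayed repair. The ratio of C3ar1 to C5ar1 in CPM was therefore 0.391 to 0.844 in day 5 macrophages and 0.870 to 1.33 at day 14, with no overlap between days.

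C1q and C3 went in opposite directions over time after delayed repair, short of the threshold. C1qb was 0.54 higher at day 14 on the log2 scale (SE 0.16, edgeR adjusted p = 0.051), C1qa 0.47 (SE 0.16, edgeR adjusted p = 0.077) and C1qc 0.37 (SE 0.15, edgeR adjusted p = 0.15). This comparison shares its day 5 libraries with the repair comparison above. C3 was lower, with a median of 112 CPM (61.6 to 189) at day 5 and 63.0 CPM (41.6 to 115) at day 14 and a log2 fold change of -0.77 (SE 0.25, edgeR adjusted p = 0.069). After immediate repair C1qb stood at 2914 and 3192 CPM and C3 at 133 and 87.2 CPM, with overlapping ranges. C4b, whose medians were 28.8 and 78.0 CPM after immediate repair, had a log2 fold change of 0.82 there (SE 0.36, edgeR adjusted p = 0.15).

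Counts over the members were as follows. After immediate repair 1 of 8 was called, C5ar1, with 11.3% of all genes called. After delayed repair 1 of 8 was called, again C5ar1, with 6.41% of all genes. The second count was 4 with DESeq2, which added C1qa, C1qb and C3, and also 4 without the delayed day 14 library of replicate 1. It was 2 without delayed day 5 replicate 5, 7, 8 or 9. The 6.41% is from edgeR with all libraries, and the shares of all genes called in these other fits are not given here.

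Some of the other complement genes of macrophages also changed with time. Of those tested, 5 of 13 were called after immediate repair by edgeR, against 11.3% of all genes, and 6 of 12 after delayed repair, against 6.41%. Itgam, the alpha chain of complement receptor 3 and the CD11b by which the cells were gated, was lower at day 14 (log2 fold change -0.82 and -0.89). Cfp, which encodes properdin, the stabiliser of the alternative pathway convertase, was also lower (-0.79 and -0.72). Itgax, the alpha chain of complement receptor 4 and a dendritic cell marker, was higher (2.47 and 2.33). Itgb2, the shared beta chain, was lower (-0.38 and -0.46), as was Cr1l, a regulator of C3 deposition (-0.33 and -0.36). The Cr1l calls and the Itgb2 call after immediate repair lay near the threshold. Each was lost under 2 of the 5 other settings, library size scaling among them. With 1 library left out, the Itgb2 call after immediate repair was lost in 13 of 16 fits, and the Cr1l call in 4 of 16 after immediate and 2 of 16 after delayed repair. The summed level of 11 dendritic cell markers moved with these genes, from 1150 to 5630 CPM in day 5 macrophages to 8377 to 21936 CPM at day 14, and its part in the member values was not tested.

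Female and male libraries differed in day 5 macrophages. In every group the males had the lower replicate numbers and the females the higher. Sex and replicate number therefore cannot be told apart in this or the other sex comparisons. C1qa, C1qb, C1qc and C4b were higher in females, and 4 of 8 members were called by edgeR, where 25.1% of all genes were. C4b had 7.38 to 27.4 CPM in delayed males and 48.2 to 121 CPM in delayed females, and 12.8 to 30.5 CPM in immediate males and 17.3 to 93.2 CPM in immediate females. Its log2 fold change, female over male, was 1.38 (SE 0.30, edgeR adjusted p = 0.0024). The values were 0.43 for C1qa (SE 0.10, edgeR adjusted p = 0.0045), 0.39 for C1qc (SE 0.10, edgeR adjusted p = 0.0077) and 0.32 for C1qb (SE 0.11, edgeR adjusted p = 0.032). The C1qb call was lost without any one of 7 libraries (delayed replicates 1, 4, 7 and 9 and immediate replicates 1, 2 and 6) and with no filter on low counts. Of 12 macrophage markers, 8 were called in the same comparison, 6 of them higher in females, with a median log2 fold change of 0.36. The 1 Schwann cell marker tested was called higher in females (1.15), and 1 of 2 neutrophil markers was called lower. The dendritic cell (6 tested), fibroblast (3) and endothelial markers (2) were all higher, with 0 called. The part of these markers in the result was not tested.

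No sex difference was called at day 14 by edgeR or DESeq2, where 0 of 8 members and 0.0466% of genes passed and 0 members against 3.07% of genes had an unadjusted p under 0.05. The sex by day interaction, added after the data were seen, was -1.76 for C4b (SE 0.50, edgeR adjusted p = 0.058), -0.47 for C1qa (SE 0.20, edgeR adjusted p = 0.17) and -0.47 for C1qc (SE 0.19, edgeR adjusted p = 0.14). In it 0 of 8 members and 1.52% of genes were called by edgeR, and 3 members and 21.6% of genes had an unadjusted p under 0.05. Of 12 macrophage markers 10 were lower in it, 3 of them called, with a median of -0.48, and their part in the member values was not tested. Among the other complement genes 2 of 12 tested were called by edgeR between the sexes at day 5, against 25.1% of all genes. C5ar2, the second C5a receptor, was higher in females (log2 fold change 0.79) and called in the interaction (-1.24). Itgb2, the beta chain of complement receptors 3 and 4, was lower in females (-0.25, edgeR adjusted p = 0.046), near the threshold, and was lost in 13 of 17 fits with 1 library left out, with library size scaling and with no filter.

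In the distal stump at day 5, 1 of the 9 transcripts, C3ar1, the C3a receptor, was called higher after delayed repair. The fitted log2 fold changes of the other 8 were above 0 and did not pass the test. In whole tissue, fewer cells of a type and less RNA per cell cannot be told apart. C3ar1 had a median of 161 CPM after immediate repair, from 97.0 to 253 CPM, and of 275 CPM after delayed repair, from 220 to 351 CPM. Of the immediate libraries, 1 reached into the delayed range. The log2 fold change of C3ar1 was 0.71 (SE 0.17, edgeR adjusted p = 0.0050), and it was called with each of the 16 libraries left out (0.59 to 0.80) and under every other setting run.

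C5ar1 and C4b came near the threshold. C5ar1 had 41.8 to 95.4 CPM (median 69.3) after immediate and 60.2 to 128 CPM (median 96.1) after delayed repair, a log2 fold change of 0.51 (SE 0.19, edgeR adjusted p = 0.053). C4b had 184 to 546 CPM (median 216) and 194 to 817 CPM (median 423), a log2 fold change of 0.71 (SE 0.30, edgeR adjusted p = 0.083). C3 had 421 to 1254 CPM (median 578) and 545 to 1552 CPM (median 870), a log2 fold change of 0.52 (SE 0.27, edgeR adjusted p = 0.16). All 3 overlapped between the groups. The immediate library of replicate 4 had the highest C3 and C4b of its group. Without it C3 (0.77), C4b (0.99) and C5ar1 (0.62) were called beside C3ar1.

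C1q, C2 and Cfb were nearer to 0. C1qa had a median of 297 CPM (126 to 590) after immediate and 460 CPM (264 to 735) after delayed repair. The log2 fold changes were 0.38 for C1qa (SE 0.29), 0.31 for C1qb (SE 0.21) and 0.24 for C1qc (SE 0.30). C2 had medians of 93.6 and 104 CPM (0.42, SE 0.24) and Cfb of 285 and 461 CPM (0.39, SE 0.32). With the replicate block the values were 0.24 for C1qa, 0.15 for C1qc, 0.13 for C2, 0.18 for Cfb and 0.30 for C3, and with sex as a covariate C2 was at 0.26. With 1 library left out C1qb ran from 0.18 to 0.43 and C1qc from 0.080 to 0.40, both lowest without immediate replicate 3. Within males C2 had a mean of 81.6 ± 20.6 CPM (SD, n = 4) after delayed and 96.2 ± 19.0 CPM (n = 4) after immediate repair, and C3 stood at 711 ± 189 CPM against 725 ± 365 CPM. Within females C2 was at 161 ± 33.9 CPM (n = 5) against 95.0 ± 24.3 CPM (n = 3), and C3 at 1047 ± 385 CPM against 525.5 ± 98.5 CPM. The edgeR adjusted p of C1qa, C1qb, C1qc, C2 and Cfb ran from 0.20 to 0.58. Of the 9 members 1 was called, against 26.3% of all genes, or 12.8% counting genes higher after delay. The median log2 fold change was 0.42 over the members and 0.02 over all genes. DESeq2 called 3 members (C3ar1, C5ar1 and C4b), and a sex term in the edgeR fit gave 2. The count was also 2 without delayed replicate 1, without delayed replicate 5 or without immediate replicate 8. The shares of all genes called in these other fits are not given here.

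**Figure D2:**
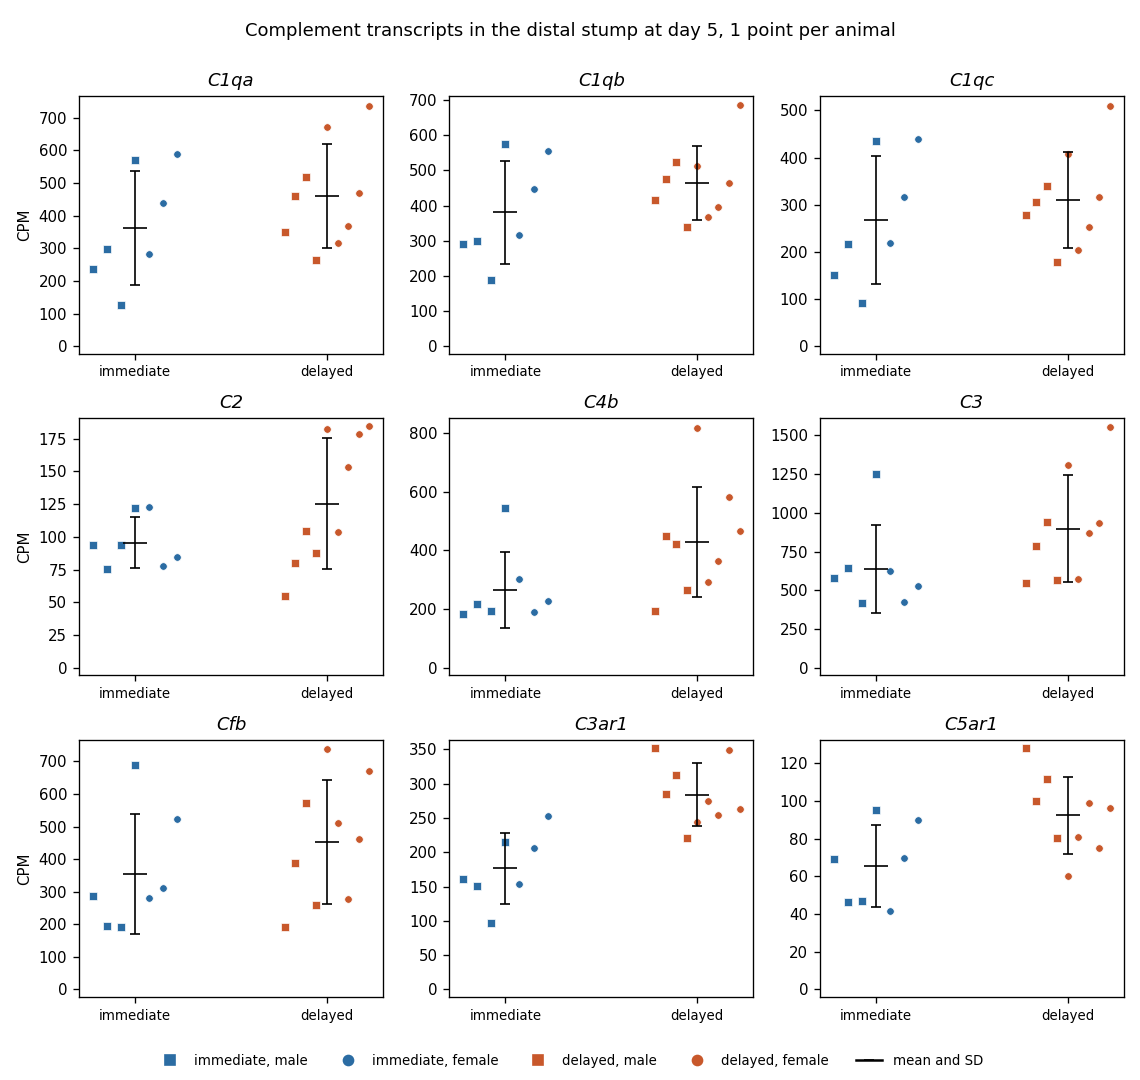
Levels of the 9 transcripts in the distal stump at day 5, in CPM, after immediate and delayed repair. Each point is 1 animal (squares male, circles female), and the bars give the mean and SD. C3ar1 runs from 97.0 to 253 CPM after immediate and from 220 to 351 CPM after delayed repair, and the groups of the other genes overlap more widely.

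Cell type markers moved with these values in the stump. The summed macrophage markers were 1630 to 5542 CPM (median 2723) after immediate and 3608 to 5560 CPM (median 4582) after delayed repair, with 10 of 12 higher, 3 of them called and a median log2 fold change of 0.48. Emr1, which encodes F4/80, was 0.84 higher and Csf1r, the receptor of the macrophage growth factor CSF1, 0.64 higher. The Emr1 call was lost in 8 of 16 fits with 1 library left out, with no filter and with the replicate block, and the Csf1r call with the replicate block. The 9 Schwann cell markers were all called lower, with sums of 1428 to 3400 CPM after immediate and 123 to 867 CPM after delayed repair. The 6 endothelial markers were all higher and 4 were called, with sums of 684 to 927 CPM and 1068 to 1584 CPM. Of the dendritic cell markers 10 of 10 tested were higher, 2 of them called, with a median log2 fold change of 0.62 and sums of 595 to 1629 CPM and 1008 to 1987 CPM. Of the fibroblast markers 7 of 9 were higher and 1 was called, with a median of 0.34. The 3 neutrophil markers tested had a median of 0.34 and 0 called. The part of these shifts in the member values was not tested. As a ratio to Csf1r in CPM, C1qb was 0.833 to 1.11 after immediate and 0.651 to 0.991 after delayed repair.

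Other complement genes called in the stump were C5ar2 (log2 fold change 0.71) and Cd93, a C1q-related receptor of endothelial and myeloid cells (0.73), which were higher, and Cd59a, an inhibitor of the membrane attack complex (-0.82), and Fcna, a ficolin of the lectin pathway (-1.31), which were lower. Fcna lay near the threshold (edgeR adjusted p = 0.048) and was lost in 10 of 16 fits with 1 library left out. The Fcna call was also lost under 3 of the 5 other settings. The called genes were 4 of 21 tested, against 26.3% of all genes, and the median log2 fold change of the 21 was 0.38. Between the sexes 0 of 9 members were called in the stump by edgeR or DESeq2, where 0.0654% of genes were. C2 alone had an unadjusted p under 0.05, at 0.56 higher in females (SE 0.21, edgeR adjusted p = 0.29), and 14.6% of all genes had such a p.

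**Figure D3:**
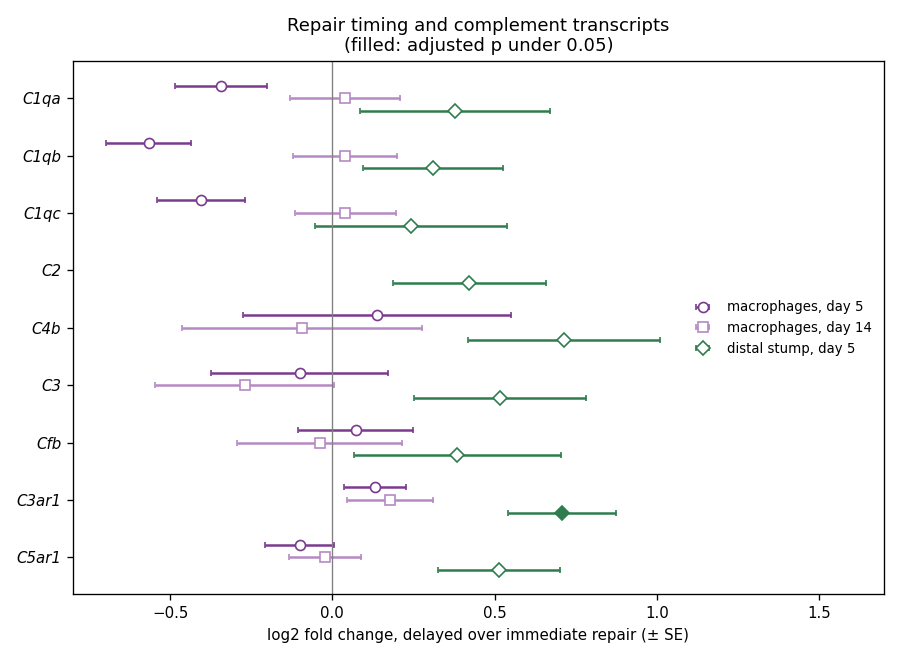
Log2 fold change of each transcript, delayed over immediate repair, with its SE from edgeR, in macrophages at day 5 (circles) and day 14 (squares) and in the distal stump at day 5 (diamonds). A filled symbol has an adjusted p under 0.05, which C3ar1 in the stump alone has. The C1q chains lie below 0 in day 5 macrophages and above 0 in the stump, and C2 was too low in macrophages to be tested.

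In the SC libraries the complement transcripts were low and spread over a wide range. C1qb ran from 3.63 to 1342 CPM at day 5 and from 18.0 to 278 CPM at day 14, against 1442 to 4443 CPM in macrophages. Against macrophages at day 5, 8 of 8 members tested were called lower by edgeR, where 29.9% of all genes were called lower. The log2 fold changes were -3.62 for C1qa and C1qb, -3.75 for C1qc, -4.05 for C5ar1, -3.26 for C3ar1, -2.31 for Cfb and -1.96 for C3. Over the other settings run, C1qa ran from -4.56 to -3.35, C1qb from -4.63 to -3.37 and C1qc from -4.82 to -3.50. C5ar1 ran from -4.86 to -3.77, C3ar1 from -3.90 to -3.03, Cfb from -2.74 to -2.05 and C3 from -2.89 to -1.70. The median of the 12 macrophage markers in the same comparison was -3.54. All 11 dendritic cell markers were called higher in the SC libraries (median 5.78), as were the 9 Schwann cell markers (median 9.77), and their part in the member values was not tested. In day 5 macrophages alone 1 of 9 Schwann cell markers and 6 of 11 dendritic cell markers passed the filter on low values. The rest passed it only with the SC libraries, so their calls were largely fixed in advance. Fold sizes against counts near 0 depend on the prior count. C4b was closest, at -0.88 (SE 0.35, edgeR adjusted p = 0.027), with 2.22 to 96.8 CPM in SC and 7.38 to 121 CPM in macrophages. The C4b call was lost with library size scaling (-0.65, adjusted p = 0.13), without the SC libraries above 5000 CPM of macrophage markers (-0.77, adjusted p = 0.071) and without any one of 8 libraries, with adjusted p from 0.010 to 0.066 over all such omissions. These 8 were macrophage delayed replicate 6 and immediate replicate 8, SC delayed replicates 2, 7, 8 and 9 and SC immediate replicates 5 and 8.

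At day 14, 6 of 9 members were called lower and 1 higher than in macrophages, where 27.5% and 36.9% of all genes were. The log2 fold changes were -4.97 for C1qa, -4.99 for C1qb, -4.94 for C1qc, -4.87 for C3ar1, -4.34 for C5ar1 and -3.47 for Cfb, beside a macrophage marker median of -4.04. Of the 11 dendritic cell markers 10 were called higher and 1 lower (median 5.31). In day 14 macrophages alone 6 of these 11 passed the filter on low values, so the calls of the rest were largely fixed in advance. C4b (30.8 to 233 CPM after delayed and 2.38 to 123 CPM after immediate repair) overlapped with macrophages (20.7 to 132 CPM), with a log2 fold change of -0.51 (SE 0.35, edgeR adjusted p = 0.20). C3 was at -0.70 (SE 0.49, edgeR adjusted p = 0.21). With the animal as a block, which pairs the cells of each mouse, C3 was called at -1.76 (adjusted p = 0.0027). It was also called without the SC libraries above 1000 CPM of neutrophil markers (-1.21), and without SC delayed replicate 1 (-1.44) or immediate replicate 3 (-1.26). C2 was the 1 member called higher, at 2.84 (SE 0.91), with 0 to 51.3 CPM in SC and 0 to 3.65 CPM in macrophages at day 14, but it passed the filter on low values only through the SC libraries and so had to differ.

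Among the other complement genes, 14 of 16 tested were called between SC libraries and macrophages at day 5 (edgeR), against 65.5% of all genes, and 15 of 17 at day 14, against 64.4%. The counts include genes that passed the filter on low values only through the group in which they were high and so had to differ, among them Clu at both days, C5ar2 at day 5 and Cd59a at day 14. Clu, which encodes clusterin, an inhibitor of the membrane attack complex, was higher in the SC libraries (log2 fold change 9.80 at day 5 and 9.78 at day 14), as was Cd59a at day 14 (3.63). Many macrophage libraries had a Clu count of 0, so the size of its fitted fold change depends on the prior count. Cfp was lower (-2.76 and -2.60), as were Itgb2 (-2.57 and -1.93) and, at day 5, C5ar2 (-3.88). Itgam was also lower (-3.35 and -3.07), and its product CD11b was used in the sort. The Cfp, Itgb2 and Itgam calls held in every fit with 1 library left out and under every other setting run.

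**Figure D4:**
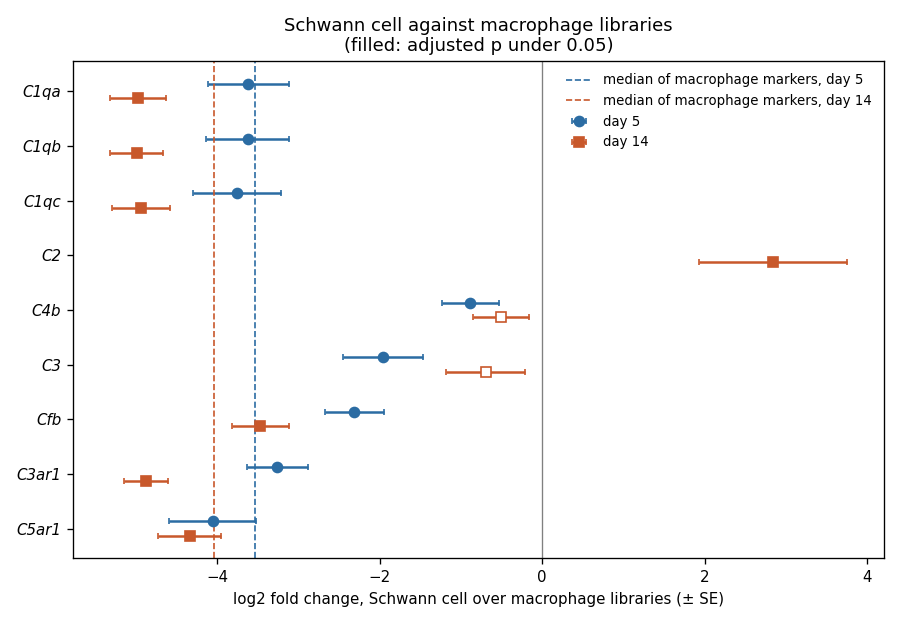
Log2 fold change of each transcript, SC over macrophage libraries, with its SE from edgeR, at day 5 (circles) and day 14 (squares). Dashed lines give the median of the 12 macrophage markers at each day, -3.54 and -4.04, and filled symbols have an adjusted p under 0.05. C1q and the 2 receptors lie at -3.26 or below at both days, while C4b and C3 lie closer to 0.

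Among the SC libraries, C1q and C5ar1 followed macrophage markers and C4b followed Schwann and fibroblast markers. Over the 31 libraries the Pearson correlation of log2(CPM + 1) with the summed macrophage markers was 0.82 for C1qb, 0.85 for C5ar1 and 0.61 for C3ar1, and -0.03 for C4b. With the summed Schwann cell markers it was 0.67 for C4b and -0.04 for C1qb, and with the fibroblast markers 0.70 for C4b and 0.18 for C1qb. These are descriptions over libraries that share a sort and its impurities. The delayed day 5 library of replicate 9 held the most macrophage markers (10651 CPM) and also the most C1qb (1342 CPM).

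**Figure D5:**
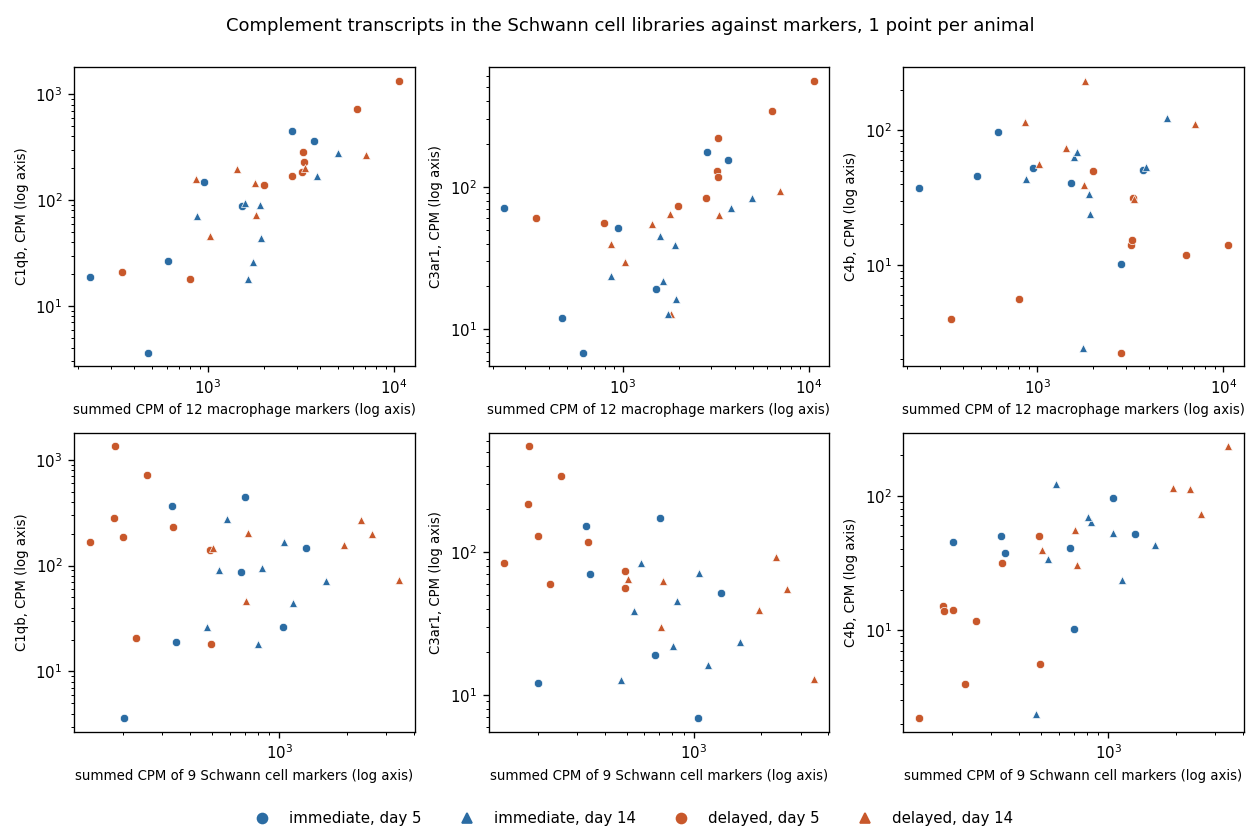
CPM of C1qb, C3ar1 and C4b in each SC library, on log axes, against the summed CPM of 12 macrophage markers (top) and 9 Schwann cell markers (bottom). Each point is 1 animal, with repair by colour and day by shape. C1qb climbs with the macrophage markers (Pearson correlation 0.82) and C4b with the Schwann cell markers (0.67).

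No member passed the test by repair in SC. At day 5, 0 of 8 were called by edgeR or DESeq2, with 0% of all genes, and 1 member against 5.26% of genes had an unadjusted p under 0.05. That member was C4b, at 10.2 to 96.8 CPM (median 45.6) after immediate and 2.22 to 49.96 CPM (median 13.9) after delayed repair, a log2 fold change of -1.61 (SE 0.52, edgeR adjusted p = 0.82). Over the other settings run C4b lay between -2.33 and -1.53 and was not called. The fitted values of the other 7 were above 0, and the median of the 8 was 1.22, against -0.01 over all genes. The largest were 1.51 for C1qa (SE 0.90), 1.48 for C5ar1 (SE 0.94), 1.33 for C1qc (SE 0.96), 1.32 for C3ar1 (SE 0.67) and 1.13 for C1qb (SE 0.91). Without the SC libraries above 5000 CPM of macrophage markers, C1qa was at 0.41, C5ar1 at 0.46, C1qc at 0.18, C3ar1 at 0.55 and C1qb at -0.07. The 9 Schwann cell markers were lower in the same comparison, with a median of -1.70 and 0 called, and 10 of 11 macrophage markers were higher, with a median of 1.38 and 0 called. At day 14, 0 of 9 members were called by either tool, with 0% of all genes, and 0 against 3.65% had an unadjusted p under 0.05. The repair by day interaction called 0 of 9 by edgeR or DESeq2, with 0% of all genes. C4b had the 1 unadjusted p under 0.05 in it, against 4.8% of genes, at 2.45 (SE 0.78, edgeR adjusted p = 0.75).

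From day 5 to day 14 after delayed repair, C4b rose and C3ar1 fell in the SC libraries. C4b had 2.22 to 49.96 CPM (median 13.9) at day 5 and 30.8 to 233 CPM (median 73.3) at day 14, a log2 fold change of 2.35 (SE 0.53, edgeR adjusted p = 0.017). C3ar1 had 55.8 to 552 CPM (median 118) and 12.9 to 92.8 CPM (median 54.8), a log2 fold change of -2.01 (SE 0.52, edgeR adjusted p = 0.029). Both overlapped between the days. Cfb had 3.27 to 337 CPM (median 74.8) and 5.04 to 80.7 CPM (median 23.1), at -2.10 (SE 0.71, edgeR adjusted p = 0.074). These were 2 of 8 members called, with 8.09% of all genes. The Schwann cell markers were 9 of 9 higher at day 14, with 3 called and a median of 2.41, the fibroblast markers 7 of 7 higher, with 1 called and a median of 2.55, and the macrophage markers 11 of 11 lower, with 0 called and a median of -1.19, and their part in the result was not tested.

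Neither call was firm. Without the SC libraries above 5000 CPM of macrophage markers, which are delayed day 5 replicates 7 and 9 and delayed day 14 replicate 4, C4b was at 2.24 (adjusted p = 0.082) and C3ar1 at -1.42 (adjusted p = 0.075). With the replicate block C4b was at 2.79 (adjusted p = 0.057) and C3ar1 at -1.63 (adjusted p = 0.065), and with sex as a covariate C3ar1 was at -1.71 (adjusted p = 0.061). C3ar1 was also lost without day 5 replicate 7, day 14 replicate 2 or day 14 replicate 6, with adjusted p from 0.021 to 0.064 over the 16 omissions, whereas C4b was called in all 16. After immediate repair 0 of 9 members were called by edgeR or DESeq2, where 3.81% of genes were, and 0 had an unadjusted p under 0.05, against 18.6% of genes. C4b had medians of 45.6 and 48.2 CPM at the 2 days there. Cd59a was the other complement gene called after delay in SC, at 2.33. This call too was lost under 2 of the 6 other settings, among them the one without the SC libraries rich in macrophage markers.

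Between the sexes no member was called in SC by edgeR or DESeq2. At day 5 the count was 0 of 8, with 7.02% of all genes called, and 0 members against 21.1% of genes had an unadjusted p under 0.05. At day 14 it was 0 of 9, with 0.0391% of genes called. C3 had the 1 unadjusted p under 0.05 there, against 2.52% of genes, at -2.06 female over male (SE 0.81, edgeR adjusted p = 1.0).

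The genes whose levels followed the complement transcripts most closely differed by table. Over the 32 macrophage libraries, the mean of the C1q chains was best followed by Rgs10 (Pearson correlation 0.89), BC064078 (0.87), Cyp27a1 (0.86), Ly86 (0.85) and Hmga2-ps1 (0.83). C5ar1 was followed by Gm5150 (0.90), Trem1 (0.86), App (0.85), Rap1b (0.84) and Pf4 (0.84). For C4b the genes were Pitpnm1 (0.81), Siglec1 (0.81), Lrrk1 (0.77), Csf1r (0.77) and Tgfbr2 (0.76), and for C3 they were Hif1a (0.77), Hp (0.77), Mmp14 (0.76), Plscr1 (0.73) and Rab32 (0.73). Over the 31 SC libraries, C1q was followed by Apoe (0.93), Ms4a7 (0.90), Sepp1 (0.87), Emr1 (0.87) and Ctsd (0.86), C5ar1 by Msr1, Ctsb, Cd14, Tmem189 and Slc11a1 (0.86 to 0.88), C4b by Fgfr1, Mapre3, Ttc3, Rnf126 and Cadm4 (0.79 to 0.83), and C3 by Sod2, Steap4, Clec4e, Ptpre and Lyz2 (0.69 to 0.78).

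In the 16 stump libraries, C1q was followed by Itm2b, Rnf130, Cmtm7, Cyba and Arhgdib (0.94 to 0.97) and C5ar1 by Pygl, Slc11a1, Alox5ap, Gp49a and Nxpe5 (0.90 to 0.94). C3 was followed by Egfr, Comp, Dpep1, Slc43a1 and Itga11 (0.81 to 0.90), and C4b by Apol6, Fbln5, Slc43a1, Cd1d1 and Pdgfra (0.87 to 0.93). Slc43a1 is shared by C3 and C4b, and Pdgfra is a fibroblast marker. The correlations were taken over all libraries of a table, so they hold repair, day and sex differences together, and carry no test.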

How the data were processed

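RNA-seq was read from 3 deposited tables of gene counts, 1 for each of macrophages, SC and distal stump. Per the labels and the study's methods, the authors amplified cDNA of 1000 sorted cells (4 ng macrophage and 1.5 ng SC cDNA entered the libraries, with a kit that does not mark strand) and rRNA-depleted 100 ng of stump RNA for directional libraries. The submitters' processing notes name cutadapt 1.8, TopHat2 2.1.1, Cufflinks 2.2.1 and mm10. The program that wrote the counts is not given in the sources used here. The deposited values are estimated counts (expected counts), of which 0.951 to 1.18% were not whole, and they were rounded to whole numbers.

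A gene was tested where 6 or more libraries of a comparison reached 5 CPM. The tests were run with edgeR 4.0.16 (R 4.3.3, TMM scaling, quasi-likelihood test), with p-values adjusted over all genes tested (Benjamini-Hochberg) and a threshold of 0.05. The scripts were tested on simulated data. SE is the log2 fold change over the root of F. Printed CPM use library totals. Alternatives were DESeq2 1.42.0, library size scaling, no filter, sex as a covariate, a replicate block and each library left out. Leaving out SC libraries rich in macrophage or neutrophil markers, and the sex by day interaction, were added after seeing the data. SC and macrophages of 1 animal are paired by the animal: 7 of 16 pairs at day 5 and 7 of 15 at day 14 correlated above 0.1, with medians of 0.098 and 0.091. Replicates are separate animals, 0 of 3081 library pairs were identical, and the labels give no batch. Exon lengths came from GENCODE M21 with pandas 2.3.3.

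By rule, all 9 members were read in every comparison (those short of the threshold partly given by counts alone), with up to 5 other complement genes per comparison past the threshold by smallest p, C4a, marker lists as sums and counts, and the 5 genes with at least 5 CPM most like C1q, C3, C4b and C5ar1. Beyond this rule, Emr1, Csf1r, Cd14, Sox10, S100b, Ccr7 and S100a8 were named as markers. The members and lists were chosen with earlier results of these data known.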

Additional observations from a re-analysis of the deposited data

Results flagged for a closer look

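Of 90 sets of 1 transcript in 1 group, 13 had a library set apart by Dixon's test at the 95% level. All 13 values were the highest of their group. That level holds for independent values with a normal distribution. CPM can be skewed towards high values and some flags share a library, so 13 of 90 is not set against a chance rate. In SC after immediate repair at day 14, replicate 3 stood at 118.7 CPM of C1qa (next 50.7 CPM), 294 CPM of C3 and 184 CPM of C5ar1. That library also held 15527 CPM of neutrophil markers and 4988 CPM of macrophage markers. In SC after delayed repair at day 14, replicate 1 stood at 346.8 CPM of C3 and 233 CPM of C4b, and replicate 4 at 202 CPM of C5ar1 beside 7026 CPM of macrophage markers. In SC after delayed repair at day 5, replicate 9 stood at 147 CPM of C3 beside 10651 CPM of macrophage markers.

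In the stump after immediate repair, replicate 4 stood at 1254 CPM of C3 (next 647 CPM) and 546 CPM of C4b, and the effect of leaving it out is given with the stump results. C2 was set apart by 1 library in each of 4 groups: 4.35 CPM in macrophages of delayed day 5 replicate 9, 8.00 CPM in SC of delayed day 5 replicate 6, 47.9 CPM in SC of immediate day 5 replicate 4 and 51.3 CPM in SC of immediate day 14 replicate 7. The part of these other cell types in the values was not tested.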

How the results depend on the processing

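For the counts below, the shares of all genes called under the alternatives are not given. The count of members called moved by over 1.5 times, or from 0, in 4 comparisons, and the cause was not tested. In day 5 macrophages by repair it was 0, and 1 (C1qb) with DESeq2, with sex as a covariate or with the replicate block. In the stump it was 1, and 3 with DESeq2, 2 with sex as a covariate and 1 to 4 with single libraries left out. In macrophages over time after delay it was 1, and 4 with DESeq2, 2 with sex as a covariate, 2 with the replicate block and 1 to 4 with single libraries left out. In SC over time after delay it was 2, and 3 with DESeq2, 1 with sex as a covariate, 0 with the replicate block, 0 without the SC libraries above 5000 CPM of macrophage markers and 1 to 3 with single libraries left out. The numbers share no animal between repair groups, and their libraries correlated above 0.1 in 7 of 8 pairs at day 5 and 6 of 7 at day 14 in macrophages, 3 of 7 and 1 of 7 in SC and 1 of 7 in the stump. In no comparison did every library correlate best with its own number. Replicates 1 to 4 were male and 5 to 9 female in every group, so the block also matches sex, and the effects of number and sex in it cannot be told apart. The near-zero day 14 repair values of C1qa, C1qb and C1qc changed sign with the replicate block (-0.00447, -0.034 and -0.015) and, for each chain, with single libraries left out (from -0.080, -0.076 and -0.079 up to 0.13). The C5ar1 interaction of repair and day in macrophages changed sign with library size scaling (-0.027) and ran from -0.014 to 0.13 with single libraries left out. C1qb by repair in day 5 SC changed sign without the SC libraries above 5000 CPM of macrophage markers (-0.068). Changes of sign were checked for a chosen set of fold changes and not for every member in every comparison. No other fold change of that set reversed. The sex by day interaction was fitted once and under no alternative. In 3 more comparisons the count moved by 1. For SC against macrophages at day 5 it was 8, and 7 with library size scaling and without the SC libraries above 5000 CPM of macrophage markers. At day 14 it was 7, and 8 with the animal as a replicate block and without the SC libraries above 1000 CPM of neutrophil markers. Between sexes in day 5 macrophages it was 4, and 5 with library size scaling and 3 with no filter. With single libraries left out these 3 counts ran from 7 to 8, 7 to 8 and 3 to 4. Library size scaling shifted the median of all genes by over 0.1 on the log2 scale in several fits: by 0.16 over time in macrophages after immediate repair, -0.11 in the macrophage interaction, 0.18 and 0.20 over time in SC, 0.25 and 0.37 for SC against macrophages, and 0.15 and 0.21 between sexes at day 5. C2 was too low in macrophages to pass the filter on low values, and sequence shared with C4a limits C4b. Sequence shared with Gm20547 could likewise limit C2 and Cfb.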
